A study of Mus musculus with 6 samples.

Results

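The genes described here are 10 components of elastic fibres and microfibrils, Eln, Fbn1, Fbn2, Mfap2, Mfap4, Fbln1, Fbln2, Fbln5, Lox and Mgp, out of 55335 gene identifiers measured by strand-specific mRNA sequencing. They were matched by the symbols that the GENCODE M21 annotation of the mouse build GRCm38 gives to the identifiers, and all 10 were found. The group was chosen by measured values, namely the lower FPKM of Fbln5, Fbn1, Mfap4 and Mgp with mitochondria in these same libraries. Differences of the members between the groups are therefore a description, no p-value is given for any of the 10, and counts of members past a threshold support nothing. The samples were 3 bEnd.3 libraries that received mitochondria taken from primary mouse astrocytes, in 100 µl of medium, and 3 bEnd.3 libraries that received that volume of medium alone, all collected after 24 h. All 6 carry the genotype label WT and were grown in high-glucose DMEM with 10% fetal bovine serum. bEnd.3 derives from mouse brain endothelium transformed by polyomavirus middle T, so the cells model 1 immortal line and not brain vessels. No label ties the replicates to different cultures. The p-values below then reflect the spread between these libraries alone, and that spread may be technical. The study concerns regulation of the blood-brain barrier by mitochondria passed on from astrocytes.

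Elastic fibres give arteries, lung and skin their recoil. Cells secrete tropoelastin, which fibulins carry onto a scaffold of fibrillin microfibrils and which lysyl oxidases then cross-link into insoluble elastin. Microfibrils also stand alone, without elastin, and hold latent TGF-beta and bone morphogenetic proteins in the matrix. In vessels most elastin is made by smooth muscle cells, with a contribution from endothelium in the inner elastic layer.

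The libraries held message of the fibulins and of some microfibril genes, with almost no elastin. Fbn1, Mfap4, Fbln1, Fbln2, Fbln5 and Mgp were expressed, and Eln, Fbn2, Mfap2 and Lox stayed under 1 FPKM in all 6 libraries. FPKM counts fragments relative to transcript length and library size, so levels can be ordered between genes. The 6 expressed genes reached 1 FPKM in at least 3 libraries and entered the fit over all 12639 genes that met this filter. With mitochondria, 5 of these 6 were lower and their libraries did not overlap the controls, and Fbln2 was the exception. Of all tested genes 11.4% were lower without overlap, but the members were chosen in this contrast and nothing is read from their count. The summed level of all 10 genes was 69.2 ± 0.513 FPKM with mitochondria and 123 ± 3.51 FPKM in controls (SD, n = 3 each).

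The depth implied by the values was 21800000 to 27200000 fragments in the mitochondria libraries and 17000000 to 21100000 in the controls, so the mitochondria libraries were the deeper ones without overlap. The part of depth in the results was not tested. The endothelial label was met only in part. Of 12 endothelial markers, 7 stayed under 1 FPKM in every library, among them Cdh5 at 0.0685 FPKM or less, Pecam1 at 0.268 FPKM or less and Cldn5 at 0.129 FPKM or less. The summed level of that list was 79.3 to 88.4 FPKM with mitochondria and 76.1 to 86.4 FPKM in controls. Of 5 tested markers, 2 were lower and 0 higher at an unadjusted p under 0.05 in limma. These were Kdr, at 3.0 FPKM with mitochondria and 3.94 FPKM in controls, and Flt1, at 7.75 and 10.0 FPKM. Eng, Tie1 and Esam had overlapping groups and higher means with mitochondria. Eng was the highest of the list, at 63.1 FPKM with mitochondria and 59.0 FPKM in controls. Of 15 fibroblast and mural markers, 9 stayed under 1 FPKM in every library, and the list summed to 383 to 421 FPKM with mitochondria and 431 to 466 FPKM in controls. That sum was lower with mitochondria along with 5 of the members, and its part in the result was not tested. The list did not move as one, since of 6 tested markers 1 was lower and 3 were higher at an unadjusted p under 0.05 in limma, by which 7.32% of all tested genes were lower and 6.58% higher. The 1 lower marker was Col1a1, a type I collagen chain, at 83.9 ± 3.19 FPKM with mitochondria and 138 ± 2.45 FPKM in controls (limma adjusted p = 0.00547). Of the 6 tested markers, Col1a1 differed most in FPKM. The 3 higher markers were Pdgfra, Acta2 and Des. They averaged 22.6, 2.18 and 6.65 FPKM with mitochondria, against 18.4, 1.64 and 4.97 FPKM in controls. Col3a1 and Pdgfrb had overlapping groups, at 231 and 51.7 FPKM with mitochondria and 220 and 59.8 FPKM in controls. Of 10 astrocyte markers, Aqp4, Sox9 and Gjb6 were listed at 0 in every library and Gfap stayed at 0.198 FPKM or less, and the list summed to 42.1 to 48.2 FPKM with mitochondria and 26.5 to 63.3 FPKM in controls. In 3 others of that list, named after their values were seen, the groups did not overlap and the mitochondria libraries were higher. Aldoc alone of these was a tested gene, and of all tested genes 9.62% were higher without overlap. Aldh1l1, a folate enzyme, had 0.972, 1.15 and 1.06 FPKM with mitochondria, against 0.416, 0.455 and 0.302 FPKM in controls. The glutamate transporter gene Slc1a2 averaged 0.122 ± 0.0471 FPKM with mitochondria and 0.0476 ± 0.0304 FPKM in controls, and the aldolase gene Aldoc averaged 17.9 ± 2.28 FPKM with mitochondria and 14.1 ± 1.61 FPKM in controls (limma adjusted p = 0.268 for Aldoc, and the other 2 were under the filter). Gja1, S100b and Slc1a3 of the same list went the other way, with overlapping groups. They averaged 24.4, 0.944 and 0.0522 FPKM with mitochondria, against 34.5, 1.0 and 0.105 FPKM in controls. The part of RNA from astrocytes in the results was not tested. In bulk RNA, fewer cells of a type and less RNA per cell cannot be told apart.

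**Figure D1:**
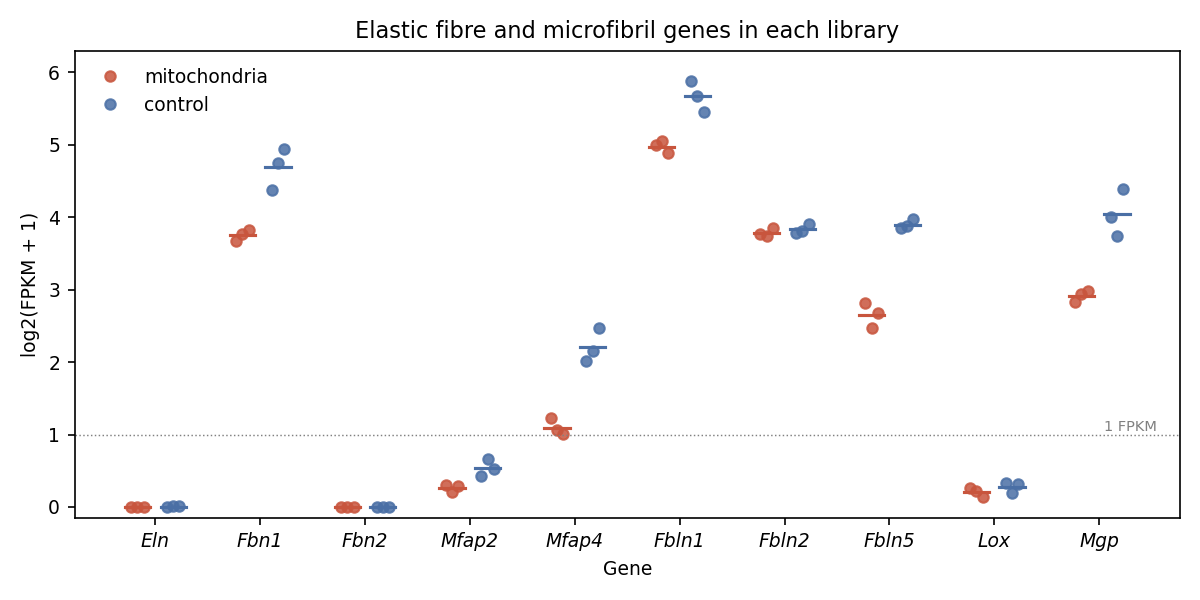
Level of each of the 10 genes on the log2(FPKM + 1) scale (vertical axis), with 1 point per library, mitochondria left of control for each gene, and a dash at the mean of the 3 log2 values. Eln, Fbn2, Mfap2 and Lox lie under the dotted line at 1 FPKM, and among the other 6 genes the groups overlap for Fbln2 alone.

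Eln, the gene of tropoelastin and the core of the mature fibre (ENSMUSG00000029675, chromosome 5, 134702593 to 134747323, GRCm38), was listed at 0 in all 3 mitochondria libraries, and in the controls at 0, 0.0067 and 0.00584 FPKM. Elastin message was thus at the floor of the measurement in both groups, and no difference could be read. Lox, the copper enzyme that starts the cross-linking of elastin and collagen, had 0.198, 0.162 and 0.1 FPKM with mitochondria, against 0.252, 0.145 and 0.245 FPKM in controls. These 2 ranges overlapped, and both groups lay too low for the fit.

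Among the microfibril genes, Fbn1 was the expressed fibrillin. Fibrillin-1 forms the backbone of microfibrils, and mutations of the human gene cause Marfan syndrome. Fbn1 (ENSMUSG00000027204, chromosome 2, 125300594 to 125507993) had 11.7, 12.6 and 13.2 FPKM with mitochondria, against 19.7, 26.0 and 29.7 FPKM in controls. The lowest control library was 1.49 times the highest mitochondria library. The mean was 12.5 ± 0.753 FPKM with mitochondria and 25.1 ± 5.04 FPKM in controls, a change of −50.2%. Differences are given below on log2(FPKM + 1), where the added 1 shrinks them for low genes. The limma difference was −0.93 (SE 0.14). Fbn2, the fibrillin most abundant in embryonic tissue, was listed at 0 in 2 mitochondria libraries and at 0.00345 FPKM in the other, and at 0 in the 3 controls. Fibrillin message in these cells was therefore nearly all Fbn1. Of the 31-base words in Fbn1 transcripts, 19.9% also occur in other genes, chiefly Gm9913, which lies on the opposite strand within the Fbn1 locus. The sources used here do not state whether counting used strand, so reads from that stretch can fall to either gene. Gm9913 itself had 0.217, 0 and 0.369 FPKM with mitochondria, against 0.16, 0.705 and 0.727 FPKM in controls.

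Mfap4, a fibrinogen-related glycoprotein that binds microfibrils and tropoelastin (ENSMUSG00000042436, chromosome 11, 61485431 to 61488900), had 1.34, 1.08 and 1.01 FPKM with mitochondria, against 3.04, 3.43 and 4.53 FPKM in controls. It was the expressed member with the lowest level, and its groups were far apart, with the lowest control at 2.28 times the highest mitochondria library. The mean was 1.14 ± 0.173 FPKM with mitochondria and 3.67 ± 0.769 FPKM in controls, a change of −68.9% and the largest relative one among the 6 tested members, and the log2 difference was −1.12 (SE 0.13). The 3′ end of Mfap4 overlaps that of Mapk7, a kinase gene on the opposite strand, and 3.03% of its 31-base words are shared. Mapk7 had 5.15 ± 0.497 FPKM with mitochondria and 5.71 ± 1.18 FPKM in controls (SD, n = 3; limma with Benjamini-Hochberg adjusted p = 0.773). Mfap2, a small glycoprotein that binds the amino-terminal part of fibrillins, was barely expressed, at 0.238, 0.153 and 0.223 FPKM with mitochondria, against 0.346, 0.586 and 0.439 FPKM in controls. The groups did not overlap, with the mitochondria libraries lower, but at these levels Mfap2 did not enter the fit and no fold is given.

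The fibulins join microfibrils, elastin and the cell surface, and this family held both the largest log2 difference among the 6 tested members and the smallest. Fbln5 binds tropoelastin, lysyl oxidase-like 1 and, through its RGD motif, integrins, and mice without it have disorganised elastic fibres. Fbln5 (ENSMUSG00000021186, chromosome 12, 101746565 to 101819055) had 6.06, 4.57 and 5.38 FPKM with mitochondria, against 13.4, 13.7 and 14.7 FPKM in controls. The groups did not overlap, and the lowest control was 2.21 times the highest mitochondria library. The mean was 5.34 ± 0.746 FPKM with mitochondria and 13.9 ± 0.688 FPKM in controls, a change of −61.7%, and the log2 difference was −1.24 (SE 0.09). Fbln1, an elastin- and fibronectin-binding fibulin and the most abundant of the 10 genes in both groups (ENSMUSG00000006369, chromosome 15, 85205949 to 85286535), had 30.9, 32.1 and 28.5 FPKM with mitochondria, against 58.2, 50.2 and 42.7 FPKM in controls. The groups were separate, with a narrower gap than for Fbln5. The mean was 30.5 ± 1.85 FPKM with mitochondria and 50.3 ± 7.75 FPKM in controls, a change of −39.4% and a log2 difference of −0.70 (SE 0.11).

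Fbln2, a fibulin of basement membranes and the elastic layer beneath endothelium (ENSMUSG00000064080, chromosome 6, 91212455 to 91272540), had 12.6, 12.4 and 13.4 FPKM with mitochondria, against 12.8, 13.0 and 14.0 FPKM in controls. The 2 ranges overlapped. The means were 12.8 ± 0.552 FPKM with mitochondria and 13.2 ± 0.655 FPKM in controls, and the log2 difference was −0.04 (SE 0.06). The make-up of the expressed fibulins was therefore unequal between the groups. Fbln2 made up 25.4%, 25.3% and 28.4% of the summed FPKM of Fbln1, Fbln2 and Fbln5 with mitochondria, against 15.1%, 16.9% and 19.6% in controls. Fbln5 made up 12.2%, 9.30% and 11.4% with mitochondria, against 15.9%, 17.8% and 20.6% in controls. The share of Fbln1 overlapped, at 60.2% to 65.4% with mitochondria and 59.8% to 69.0% in controls. These shares follow from the levels above and are no separate measurement. In controls Fbln5 and Fbln2 stood at about the same level, with overlapping libraries, whereas with mitochondria every library had less Fbln5 than Fbln2.

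**Figure D2:**
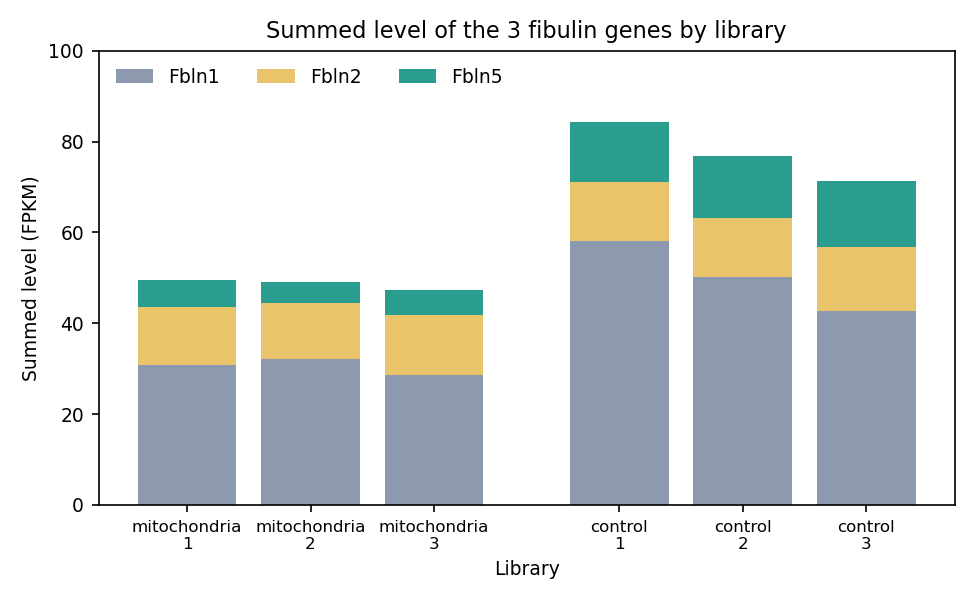
Stacked bars of the FPKM of Fbln1, Fbln2 and Fbln5 (vertical axis, from 0) in each library, mitochondria libraries on the left. The summed level is 47.3 to 49.5 FPKM with mitochondria and 71.3 to 84.3 FPKM in controls, and the Fbln2 segment has nearly the same height in all 6 bars.

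The 250 bases before the annotated start of Fbln5, Fbln1, Fbn1 and Fbln2 are shown because the first 3 genes were lower with mitochondria and the last was not. They come from RefSeq on GRCm38.p6, where 5 of the 10 genes (Fbn1, Fbln1, Fbln2, Fbln5 and Mfap2) had a window, and where a gene had several starts the most upstream one is printed. The sequences read 5′ to 3′ on the gene's strand and end at the base before the RefSeq start. For Fbn1 and Fbln2 that start lies within the span that GENCODE M21 gives the gene. Their printed windows therefore fall inside the gene coordinates given above, unlike those of Fbln5 and Fbln1. Capitals mark matches, on either strand, to 1 of 3 motifs, which did not overlap in these windows. The GC box was searched as GGGCGG. The SMAD box was searched as CAGAC. The CCAAT box was searched by the letters of its name. A TATA box (TATAAA) and an AP-1 site (TGANTCA) were also searched.
Fbln5, chr12:101819120-101819369, minus strand: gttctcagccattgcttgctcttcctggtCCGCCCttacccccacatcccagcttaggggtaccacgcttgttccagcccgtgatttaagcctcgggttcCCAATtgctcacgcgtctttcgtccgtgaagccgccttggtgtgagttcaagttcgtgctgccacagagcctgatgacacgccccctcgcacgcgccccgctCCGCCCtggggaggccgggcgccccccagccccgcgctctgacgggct
Fbln1, chr15:85205699-85205948, plus strand: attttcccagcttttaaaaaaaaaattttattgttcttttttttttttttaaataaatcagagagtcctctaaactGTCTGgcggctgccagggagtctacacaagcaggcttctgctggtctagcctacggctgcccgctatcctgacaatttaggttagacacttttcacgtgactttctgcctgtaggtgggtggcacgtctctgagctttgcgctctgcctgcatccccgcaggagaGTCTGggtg
Fbn1, chr2:125506439-125506688, minus strand: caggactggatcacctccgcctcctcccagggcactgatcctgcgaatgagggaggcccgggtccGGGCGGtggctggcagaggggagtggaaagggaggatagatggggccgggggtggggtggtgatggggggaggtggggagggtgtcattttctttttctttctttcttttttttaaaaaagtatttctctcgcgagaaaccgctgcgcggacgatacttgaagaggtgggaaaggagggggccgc
Fbln2, chr6:91212514-91212763, plus strand: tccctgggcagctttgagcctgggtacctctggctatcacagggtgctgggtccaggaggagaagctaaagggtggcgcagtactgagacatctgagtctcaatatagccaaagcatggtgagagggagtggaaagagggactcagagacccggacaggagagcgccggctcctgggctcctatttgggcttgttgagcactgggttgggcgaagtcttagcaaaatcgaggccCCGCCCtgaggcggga

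Fbln5 had 2 GC boxes and 1 CCAAT box, Fbln1 had 2 SMAD boxes, and Fbn1 and Fbln2 each had 1 GC box. The TATA box and the AP-1 site had 0 matches in all 4. Over 32851 RefSeq windows of the same length, 32.7% held a GC box, 33.8% a CCAAT box, 42.2% a SMAD box, 12.4% a TATA box and 6.75% an AP-1 site. Windows of other annotated starts, not printed, held 1 further GC box for Fbln1 and 2 SMAD boxes for Fbln5. The Fbln1 window not printed overlaps the printed one, and its 2 SMAD boxes are the same 2 sites. Over all starts, a GC box was thus found for all 4 genes, Fbln2 included. Base composition differed, with 65.2% G and C in the Fbln5 window, 46.4% in Fbln1, 59.2% in Fbn1 and 58.8% in Fbln2, beside a median of 52.4% over all windows. These matches describe the letters and say nothing of binding.

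Mgp, matrix Gla protein, is a small vitamin K-dependent protein that inhibits calcification of arteries and cartilage and binds bone morphogenetic proteins, and mice without it calcify their elastic arteries. Mgp (ENSMUSG00000030218, chromosome 6, 136872435 to 136875823) had 6.09, 6.69 and 6.90 FPKM with mitochondria, against 15.1, 12.4 and 20.0 FPKM in controls. The mitochondria libraries lay close together below a wide control group, whose lowest library was 1.79 times the highest mitochondria library. The mean was 6.56 ± 0.417 FPKM with mitochondria and 15.8 ± 3.88 FPKM in controls, a change of −58.6%, with a log2 difference of −1.13 (SE 0.16).

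By level, Fbln1 stood first in the mitochondria libraries, followed by Fbln2 and Fbn1, whose libraries overlapped, and then by Mgp, Fbln5 and Mfap4, each separate from its neighbour. In controls the order was Fbln1, Fbn1, Mgp, Fbln5, Fbln2 and Mfap4, and from Fbn1 to Fbln2 each gene overlapped the next. Among all tested genes, Fbln1 stood at the 86.3rd percentile of level with mitochondria and the 92.3rd in controls, Fbln5 at the 40.4th with mitochondria and the 68.9th in controls, and Mfap4 at the 2.97th with mitochondria and the 29.3rd in controls.

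The genes varied unequally among replicates. With mitochondria the coefficient of variation was 6.01% for Fbn1, 6.07% for Fbln1, 15.2% for Mfap4, 6.35% for Mgp, 14.0% for Fbln5 and 4.31% for Fbln2. In controls it was 20.1% for Fbn1, 15.4% for Fbln1, 21.0% for Mfap4 and 24.5% for Mgp, but 4.94% for both Fbln5 and Fbln2. Control replicate 3 had the highest Fbn1, Mfap4, Fbln5, Fbln2 and Mgp of the controls and the lowest Fbln1. Control replicate 1 had the highest Fbln1 and the lowest Fbn1, Mfap4, Fbln5 and Fbln2, and control replicate 2 the lowest Mgp. By rank over these 3 controls, Fbn1, Mfap4, Fbln5 and Fbln2 thus had the same order, Fbln1 the reverse and Mgp another. The mitochondria libraries showed no such order. From replicate 1 to 3 Fbn1 and Mgp rose there, Mfap4 fell, and Fbln1, Fbln2 and Fbln5 did neither. Implied depth was 17000000, 18400000 and 21100000 fragments in control replicates 1, 2 and 3, and its part in the spread of the controls was not tested.

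In the limma fit of log2(FPKM + 1) over all 12639 genes, 5 of the 6 tested members lay past a Benjamini-Hochberg adjusted p of 0.05, all lower with mitochondria, where 0.649% of all tested genes were called lower and 0.467% higher. The groups did not overlap, with mitochondria lower, in 5 of the 6 members and in 11.4% of all tested genes, and 9.62% of all tested genes were higher without overlap. The median log2 difference was −1.03 over the 6 tested members and −0.01 over all tested genes. Both counts are descriptions, because the members were selected on these libraries. The number past the threshold was less stable than the log2 differences. It was 1 without any one mitochondria replicate, 3, 2 and 4 without control replicates 1, 2 and 3, and 1 with no filter on low genes, while the log2 differences of the 5 genes stayed between −1.32 and −0.59 when 1 library was left out.

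**Figure D3:**
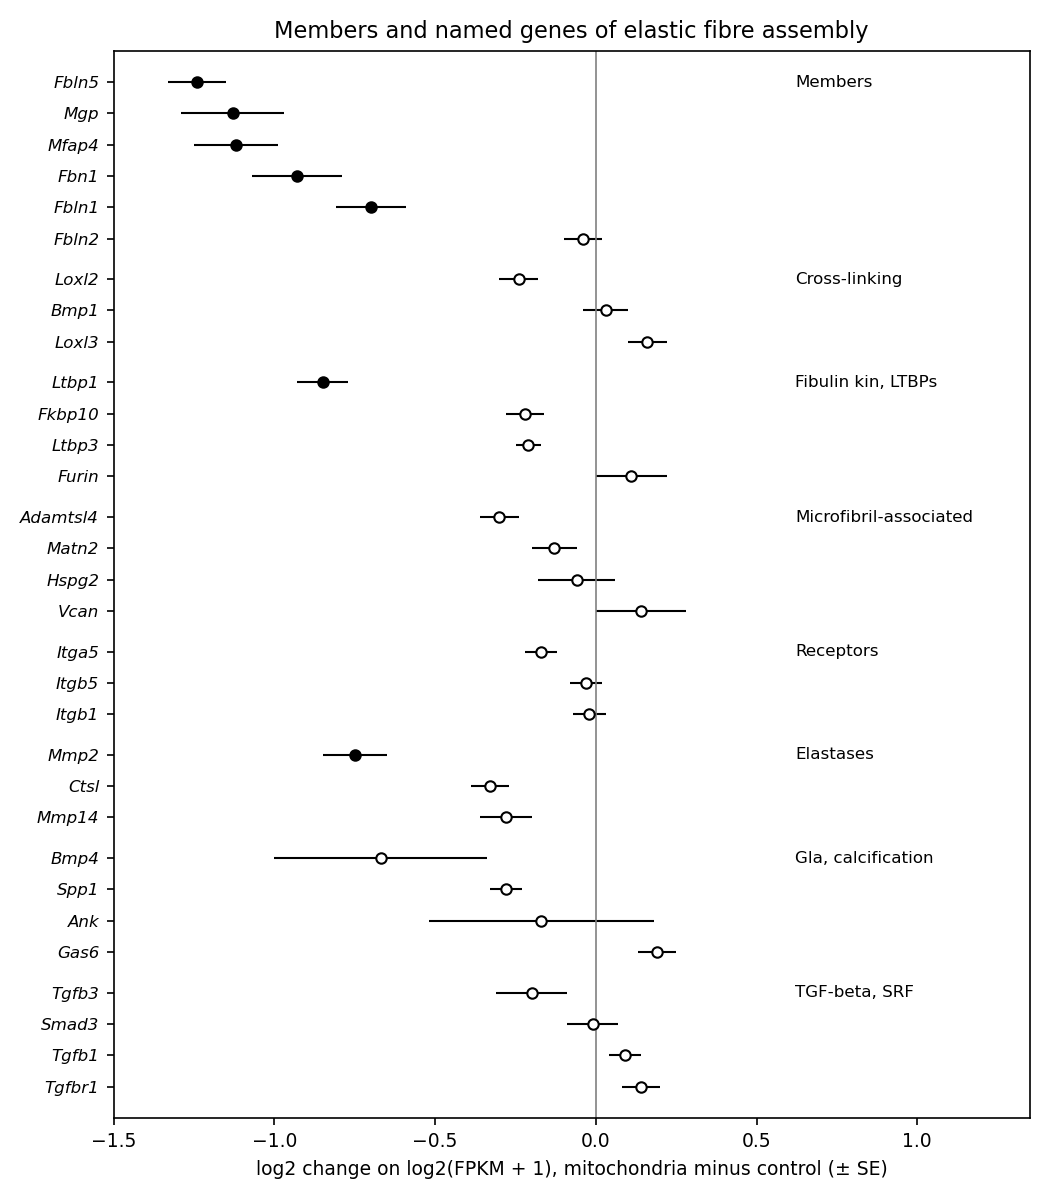
Log2 difference (mitochondria minus control, on log2(FPKM + 1), horizontal axis) with its SE for the 6 tested members and for the named genes of 7 lists of elastic fibre assembly. Filled points passed an adjusted p under 0.05 in limma. Besides 5 members these are Ltbp1 at −0.85 and Mmp2 at −0.75.

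Other genes of elastic fibre assembly, which the choice of members did not use, were mostly not called. Their lists were drawn up with earlier results of these data known, so the counts and p-values over them are descriptions too. In 7 lists with 79 genes, 55 were tested, 2 were lower and 0 higher at an adjusted p under 0.05 in limma, beside 1.12% of all tested genes called in either direction. At an unadjusted p under 0.05, 14 of the 55 were lower and 2 higher, beside 7.32% of all tested genes lower and 6.58% higher. Groups did not overlap in 17 genes that were lower and 6 that were higher, a criterion that 21% of all tested genes met in either direction. The median log2 difference of the 55 genes was −0.06.

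Ltbp1, a latent TGF-beta binding protein that tethers the latent growth factor to fibrillin microfibrils (ENSMUSG00000001870, chromosome 17, 75005568 to 75392512), fell. It had 9.84, 10.5 and 8.42 FPKM with mitochondria, against 17.3, 19.0 and 17.8 FPKM in controls. The groups were well separated and each was tight. The log2 difference was −0.85 (SE 0.08, limma adjusted p = 0.0141), and the call was lost without mitochondria replicate 1 (adjusted p = 0.0754) or control replicate 2 (adjusted p = 0.0741). With no filter on low genes the limma adjusted p was 0.0708. Ltbp1 was the 1 gene called among the 7 tested of 11 fibulin relatives, latent TGF-beta binding proteins and assembly helpers. Of all tested genes 0.649% were called lower. Of these 7, 5 were lower and 0 higher at an unadjusted p under 0.05 (for all tested genes 7.32% and 6.58%). Fkbp10, a collagen and tropoelastin chaperone, averaged 73.7 ± 2.97 FPKM with mitochondria and 86.1 ± 4.24 FPKM in controls (limma adjusted p = 0.152). Ltbp3 averaged 32.8 ± 0.245 FPKM with mitochondria and 37.9 ± 0.643 FPKM in controls (limma adjusted p = 0.0934). Furin, the protease that matures profibrillin, averaged 19.2 ± 1.82 FPKM with mitochondria and 17.8 ± 2.45 FPKM in controls (limma adjusted p = 0.707).

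Mmp2, gelatinase A, which can degrade elastin (ENSMUSG00000031740, chromosome 8, 92827291 to 92853420), also fell. It had 1.92, 1.73 and 1.76 FPKM with mitochondria, against 3.11, 3.89 and 4.18 FPKM in controls, with no overlap. Its log2 difference was −0.75 (SE 0.10, limma adjusted p = 0.0288). Omitting 1 library left the call only for control replicate 1, and limma adjusted p-values over these 6 fits ran from 0.0209 to 0.124. With no filter it was 0.105. Of 9 elastases 3 were tested, and Mmp2 was the 1 called, beside 0.649% of all tested genes called lower. All 3 were lower at an unadjusted p under 0.05 in limma, beside 7.32% of all tested genes. All 3 were also lower without overlap, beside 11.4% of all tested genes. Mmp14, the membrane protease that activates Mmp2, averaged 59.8 ± 3.22 FPKM with mitochondria and 73.1 ± 7.03 FPKM in controls (limma adjusted p = 0.197). Ctsl, cathepsin L, averaged 109 ± 3.68 FPKM with mitochondria and 138 ± 9.49 FPKM in controls (limma adjusted p = 0.0751), and it was called lower with TPM (limma adjusted p = 0.0417) and with quantile normalization (limma adjusted p = 0.0338).

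Among 6 cross-linking enzymes and their supply 5 were tested and 0 called by limma, beside 1.12% of all tested genes. At an unadjusted p under 0.05, 1 was lower and 1 higher (for all tested genes 7.32% and 6.58%). Loxl2 was the main lysyl oxidase gene by level, at 69.5, 69.7 and 61.9 FPKM with mitochondria, against 78.3, 78.0 and 81.8 FPKM in controls. The groups did not overlap, and the log2 difference of −0.24 (SE 0.06) had an adjusted p of 0.145 in limma. Loxl3 averaged 9.67 ± 0.372 FPKM with mitochondria and 8.55 ± 0.264 FPKM in controls (limma adjusted p = 0.281), and Bmp1, the protease that activates lysyl oxidase, averaged 32.2 ± 1.77 FPKM with mitochondria and 31.5 ± 2.5 FPKM in controls (limma adjusted p = 0.892).

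Of 18 microfibril-associated proteins and proteoglycans 10 were tested and 0 called by limma, beside 1.12% of all tested genes. Groups did not overlap in 4 that were lower and 0 that were higher (for all tested genes 11.4% and 9.62%). At an unadjusted p under 0.05, 1 was lower and 0 higher (for all tested genes 7.32% and 6.58%). The 1 lower gene by that p was Adamtsl4, which binds fibrillin-1, at 5.28 ± 0.251 FPKM with mitochondria and 6.70 ± 0.118 FPKM in controls (limma adjusted p = 0.0789). The large proteoglycans did not separate the groups. Vcan, versican, averaged 94.9 ± 7.90 FPKM with mitochondria and 87.0 ± 16.6 FPKM in controls (limma adjusted p = 0.726), and Hspg2, perlecan, 45.2 ± 0.549 FPKM with mitochondria and 47.8 ± 8.02 FPKM in controls (limma adjusted p = 0.863). Matn2, a matrilin, averaged 119 ± 8.25 FPKM with mitochondria and 130.0 ± 6.22 FPKM in controls (limma adjusted p = 0.484).

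Of 11 integrin and other receptor genes for microfibrils, fibulins and elastin, 8 were tested and 0 called by limma, beside 1.12% of all tested genes. At an unadjusted p under 0.05, 1 was lower and 0 higher (for all tested genes 7.32% and 6.58%). Their levels ran from Itgb6, Itgb8 and Itga9, under 1 FPKM in every library, to Itgb1. Itgb1, the beta chain shared by many integrins, averaged 113 ± 2.49 FPKM with mitochondria and 115 ± 2.53 FPKM in controls (limma adjusted p = 0.913), and Itgb5 99.3 ± 1.53 FPKM with mitochondria and 101 ± 2.34 FPKM in controls (limma adjusted p = 0.837). Itga5, the fibronectin receptor chain, averaged 58.3 ± 1.72 FPKM with mitochondria and 65.8 ± 2.70 FPKM in controls (limma adjusted p = 0.215).

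Genes that surround Mgp in the control of carboxylation and calcification had 0 calls by limma among 10 tested of 12, beside 1.12% of all tested genes. At an unadjusted p under 0.05, 3 were lower and 1 higher (for all tested genes 7.32% and 6.58%). Gas6, another vitamin K-dependent protein, was far above Mgp in level, at 1755 ± 63.8 FPKM with mitochondria and 1534 ± 66.9 FPKM in controls (limma adjusted p = 0.224). Spp1, osteopontin, averaged 29.7 ± 1.06 FPKM with mitochondria and 36.3 ± 0.956 FPKM in controls (limma adjusted p = 0.0621). Bmp4, a ligand that matrix Gla protein can bind, was uneven, at 59.6, 59.3 and 25.8 FPKM with mitochondria, against 61.6, 67.8 and 90.1 FPKM in controls (limma adjusted p = 0.431). Ank, a transporter of the calcification inhibitor pyrophosphate, was likewise uneven, at 49.3, 51.6 and 97.1 FPKM with mitochondria, against 56.3, 55.4 and 113 FPKM in controls (limma adjusted p = 0.882). For Bmp4 and Ank replicate 3 of each group stood apart from the other libraries.

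The TGF-beta ligands, their receptors and SMADs, with SRF and its cofactors, had 0 of 12 genes called by limma and 0 at an unadjusted p under 0.05. For all tested genes 1.12% were called, and 7.32% were lower and 6.58% higher at that unadjusted p. Groups did not overlap in 0 genes that were lower and 3 that were higher (for all tested genes 11.4% and 9.62%). Tgfb1 averaged 29.4 ± 0.129 FPKM with mitochondria and 27.6 ± 0.679 FPKM in controls (limma adjusted p = 0.454), and Tgfb3 23.6 ± 2.43 FPKM with mitochondria and 27.2 ± 3.10 FPKM in controls (limma adjusted p = 0.467). Smad3, the effector of the pathway with the highest level, averaged 41.0 ± 1.67 FPKM with mitochondria and 41.4 ± 3.95 FPKM in controls (limma adjusted p = 0.969). Tgfbr1, the kinase receptor, averaged 10.0 ± 0.423 FPKM with mitochondria and 8.98 ± 0.420 FPKM in controls (limma adjusted p = 0.368).

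The genes whose levels over the 6 libraries most resembled those of the 4 genes that led to the group were looked up among 7270 named genes averaging 5 FPKM or more, by Pearson's r of log2(FPKM + 1). The points share libraries, depth and the group difference, so the correlations are a description. For Fbln5 these were Crk, a signalling adaptor (r = 0.997, n = 6 libraries), Chpf, a chondroitin synthesis factor (r = 0.993), and Prr9 (r = 0.993). For Mfap4 they were Ccno, cyclin O (r = 0.998), Leo1 (r = 0.997) and Mageh1 (r = 0.996), for Fbn1 Uck2 (r = 0.992), Kcnj2 (r = 0.99) and Arhgap29 (r = 0.99), and for Mgp Adipor1 (r = 0.994), Pcyox1 (r = 0.994) and Smo (r = 0.993). Likeness in shape did not mean likeness in size, since Smo averaged 43.9 FPKM with mitochondria and 46.8 FPKM in controls, and Crk 9.53 FPKM with mitochondria and 27.0 FPKM in controls. The 4 lists of 3 genes had no gene in common.

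**Figure D4:**
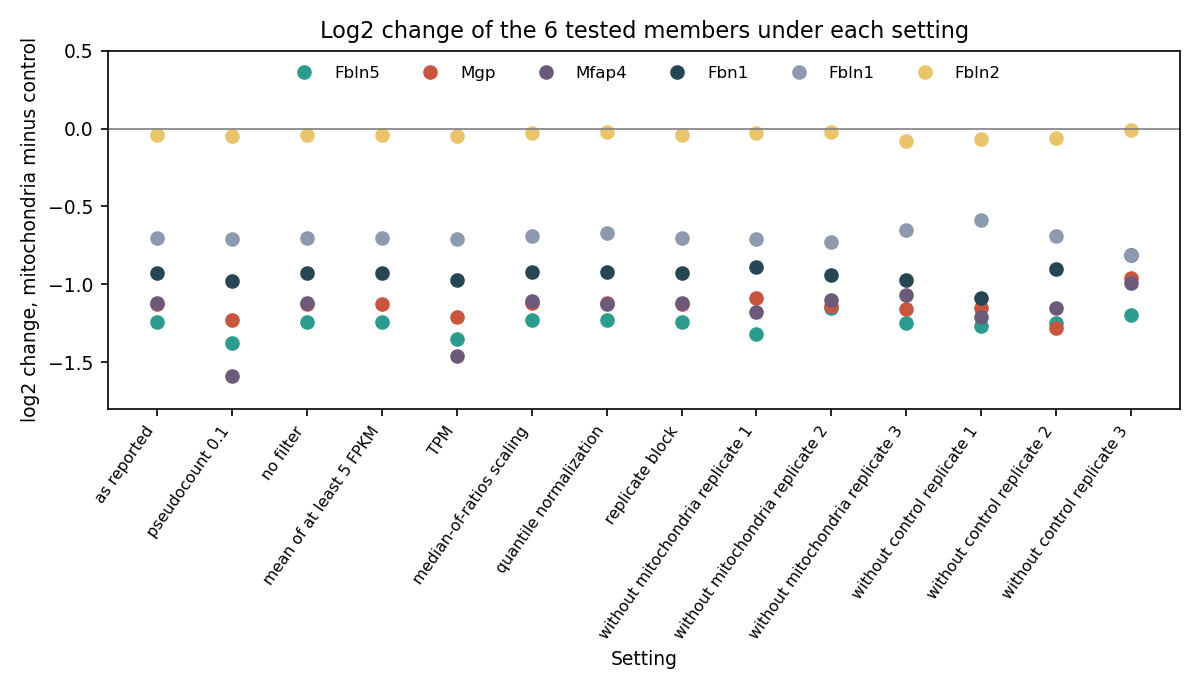
Log2 difference (mitochondria minus control, vertical axis) of the 6 tested members under each setting (horizontal axis), as reported at the left and then with each alternative. All points lie below 0, with Fbln2 between −0.08 and −0.01 and the other 5 genes between −1.59 and −0.59. Mfap4 has no point at a mean of at least 5 FPKM because it does not reach that level.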

How the data were processed

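The 6 files hold 1 value per gene and library. The authors' headers name no unit, and the deposited values were read as FPKM because they are not whole numbers and sum to between 281433 and 297838 per library. FastQC 0.11.5, STAR 2.5.3a and StringTie 1.3.1c with GRCm38 (mm10) were used, per the submitters' processing notes, whose roles and settings are not given in the sources used here. GENCODE M21 gave symbols and positions for 55154 of 55335 identifiers. Depth was estimated from the worth of 1 fragment in genes with 1 transcript, and no count model was used.

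The fit took genes that reached 1 FPKM in 3 or more of the 6 libraries. It used limma 3.58.1 in R 4.3.3 with values as log2(FPKM + 1), a single group term, the trend and robust options, and two-sided Benjamini-Hochberg adjustment over 12639 genes. The code was checked on simulated data with 200 changed genes. Exact zeros were rarely at odds with other libraries: 8 genes were at 0 in 1 library and at 5 FPKM or more in another.

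The members and lists were chosen with earlier results of these data known. Named genes were the 10 members and, per list, every called gene (or the smallest p where none was called) and the 3 highest means, besides fixed cell type markers and the 3 genes most correlated with each of 4 members. Alternatives were a pseudocount of 0.1, quantile normalization, median-of-ratios scaling, TPM, omission of the filter or a filter on a mean of 5 FPKM, leaving out single libraries, and a replicate block.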

Additional observations from a re-analysis of the deposited data

How the results depend on the processing

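All 6 tested members kept a negative log2 difference under the pseudocount, filter, scaling, block and leave-one-out settings in which each was tested. With no filter, limma called 1 member lower, 0 pathway genes (16 lower and 2 higher at an unadjusted p under 0.05) and 13 genes over all tested, where 29365 genes shared the adjustment. A mean of at least 5 FPKM left 1 pathway gene called, Ltbp1, because Mmp2 is below it. That filter left 4 members called lower, because Mfap4 is below it too, and 106 genes over all. Omission of 1 library gave 1 to 4 members lower, 0 to 2 pathway genes and 15 to 84 genes over all, against 5, 2 and 141 with all 6 libraries. The counts over all genes were 15, 16 and 28 without mitochondria replicates 1, 2 and 3, and 84, 21 and 84 without control replicates 1, 2 and 3. TPM and quantile normalization each called 3 pathway genes, with Ctsl added. TPM called 4 members lower, with Fbn1 lost, and 135 genes over all. Quantile normalization called 5 members lower and 156 genes over all. The replicate number as a block gave 2 members lower, 1 pathway gene (Mmp2 had a limma adjusted p of 0.0619) and 56 genes over all. The numbers were not taken to pair the samples. Deviations from the group means correlated at 0.10, 0.05 and 0.30 between libraries numbered 1, 2 and 3. Mitochondria replicate 1 correlated best with control replicate 2 (0.12). The 0.30 between the libraries numbered 3 was the highest value. Mitochondria replicate 3 correlated at −0.18 and −0.15 with control replicates 1 and 2. Control replicate 3 correlated at −0.20 and −0.13 with mitochondria replicates 1 and 2. What the libraries numbered 3 share was not tested. Omission of 1 library turned the sign of 5 uncalled genes: Bmp1 ranged from −0.02 to 0.09 (also −0.01), Vcan from −0.02 to 0.25, Hspg2 from −0.2 to 0.03, Ank from −0.48 to 0.17 (also 0.00) and Smad3 from −0.06 to 0.06 (also 0.01). Smad3 was at 0.01 with quantile normalization too. Where no cause is named above, the cause was not tested. Depth limits the 4 members under 1 FPKM, which were left out of the fit and for which no fold is given.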

Other observations

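Mfap5, a second microfibril-associated glycoprotein of the Mfap2 family, was too low for the fit, and its values were known when it was picked for mention. It had 0.42, 0.496 and 0.317 FPKM with mitochondria, against 0.804, 1.04 and 1.06 FPKM in controls, so the groups did not overlap and the mitochondria libraries were lower, as for Mfap2. Loxl1, the lysyl oxidase-like enzyme most tied to elastin and picked in the same way, stayed at 0.191 FPKM or less in every library.

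Vkorc1, which regenerates the vitamin K that carboxylation of matrix Gla protein consumes, was picked in the same way. It had 17.4, 17 and 19.8 FPKM with mitochondria, against 36.0, 19.9 and 34.0 FPKM in controls, where control replicate 2 lay next to the mitochondria libraries (limma adjusted p = 0.236). Control replicate 2 also had the lowest Mgp of the controls, at 12.4 FPKM, but above every mitochondria library (6.90 FPKM or less). A tie between Vkorc1 and Mgp was not tested. Gja1, a connexin gene on the astrocyte list, had 24.1, 23.5 and 25.8 FPKM with mitochondria, against 45.7, 11.7 and 46 FPKM in controls, so control replicate 2 was the lowest library and the other 2 controls the highest.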
